A study of Homo sapiens with 4 samples.

Results

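The cadherin, catenin and junction genes CDH1, CDH2, CDH11, CTNNA1, CTNNB1, JUP, CLDN1, CLDN7, OCLN and TJP1 were described in RIP-seq data of MDA-MB-231 cells, a line of triple-negative breast cancer with mesenchymal traits. The genes were chosen by name, and every row of the deposited transcript table that carries one of these names was kept. All 10 genes had a row, with 75 of the 75165 listed transcripts and 10 of the 20298 listed genes. The cells overexpressed 3x Flag-tagged YTHDC1, a nuclear reader of m6A-modified RNA, from a lentivirus used at an MOI of 4, with puromycin at 2 μg/ml for selection. Selection is listed as 4 days for the samples. The study's methods state this duration for other cells, such as knockout cells, and give none for the overexpressing cells. After UV crosslinking at 254 nm, nuclear lysate was taken for anti-Flag immunoprecipitation (the Flag-YTHDC1 IP group, 2 libraries) or kept as starting material (the input group, 2 libraries). All 4 libraries therefore carry the overexpressed protein.

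The question of the study's design, which RNAs are recovered with YTHDC1, was not addressed for these genes here. The only value used is the authors' mean normalized count of each transcript over IP and input libraries together, the count after the libraries were scaled to each other. It has no value per library, no spread and no direction between IP and input, and library depths are unknown. The authors' own comparison of the groups was not used, and no test was run. The mean normalized counts are not divided by transcript length, and levels of different genes are given side by side without an order. A value reflects the scaled reads assigned to a transcript and is not a number of reads. Reads that fit several transcripts of a gene were divided by a statistical estimate. All shares within a gene carry the error of this estimate, which is unknown. YTHDC1 itself had a mean normalized count of 55488 over 6 listed transcripts, of which YTHDC1-207 held 60.6% and YTHDC1-202 38.5%. Endogenous and vector-derived reads of this gene cannot be told apart.

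Classical cadherins are transmembrane proteins that hold neighbouring cells together through their extracellular repeats. Their cytoplasmic tails bind beta-catenin (CTNNB1) or plakoglobin (JUP), which in turn bind alpha-catenin (CTNNA1) and so the actin cytoskeleton, while tight junctions seal the space between cells with claudins and occludin anchored to scaffold proteins such as ZO-1 (TJP1). Loss of E-cadherin and of epithelial junction proteins, with gain of mesenchymal cadherins, is a known trait of epithelial to mesenchymal transition.

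The label of the cells was compared with marker genes. All 8 mesenchymal markers were listed, with 80785 mean normalized counts for VIM (vimentin), 63189 for AXL (a receptor tyrosine kinase), 16414 for FN1 (fibronectin) and 14306 for CD44 (a hyaluronan receptor), whereas SPARC reached 11.4. Of 11 luminal epithelial markers 7 were listed, and the 4 without a row were ESR1 and PGR (the estrogen and progesterone receptors), FOXA1 and ESRP1. KRT8 (31132), KRT18 (27123) and KRT19 (7521), keratins of simple epithelia, were listed, as were GATA3, a luminal transcription factor, with 584 and EPCAM, an epithelial adhesion protein, with 78.3. Of 4 basal markers, KRT5 and KRT14 were not listed, and KRT17 and TP63 had 24.3 and 20.0. Of 5 blood and endothelial markers, CD3E was not listed, PTPRC had 3.81, VWF 10.7, PECAM1 102 and CD68, a gene that is not restricted to macrophages, 2463. A gene without a row lies outside the table and was not analysed here, which does not show that it is not transcribed.

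The cadherins were represented very unevenly. CDH1 (ENSG00000039068.19, RefSeq locus chr16:68737292-68835537 on GRCh38.p14), which encodes E-cadherin of epithelial cells, had 1 listed transcript, CDH1-209 (ENST00000566510.5). This transcript is annotated as a target of nonsense-mediated decay, the pathway that degrades RNAs with a premature stop, and its mean normalized count was 10.0. No protein-coding transcript of CDH1 was listed. CDH2 (ENSG00000170558.9, chr18:27932879-28177130), which encodes N-cadherin of neural and mesenchymal cells, had 2 protein-coding transcripts. CDH2-201 had a mean normalized count of 9.42 and CDH2-202 one of 4.98. The 3 transcripts of these cadherins thus lay below the lower quartile of all listed transcripts, 14.2. The lowest value of the table was 2.72, and 17.3% of all listed transcripts lay below CDH1-209, 15.8% below CDH2-201 and 3.51% below CDH2-202.

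CDH11 (ENSG00000140937.14, chr16:64943753-65123744), which encodes OB-cadherin of mesenchymal cells, rested on far more reads. Its 11 listed transcripts summed to 7214 mean normalized counts, and CDH11-212 (ENST00000566827.5), annotated as protein-coding, alone had 5382, more than 99.0% of all listed transcripts. By the estimated division of reads, CDH11-212 held 74.6% of the counts of the gene. For comparison, the most abundant transcript held a median of 45.9% (quartiles 33.9% and 61.6%) in the 263 other protein-coding genes with 11 listed transcripts. The next transcripts of CDH11 were the protein-coding CDH11-213 with 660 (9.15%), the processed transcript CDH11-217, which has no annotated reading frame, with 511 (7.09%) and the protein-coding CDH11-206 with 393 (5.44%). The other 7 transcripts had between 3.34 and 154 mean normalized counts. By type, 92.3% of the counts of CDH11 lay in protein-coding transcripts, and its only retained-intron transcript, CDH11-216, held 0.260%.

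**Figure D1:**
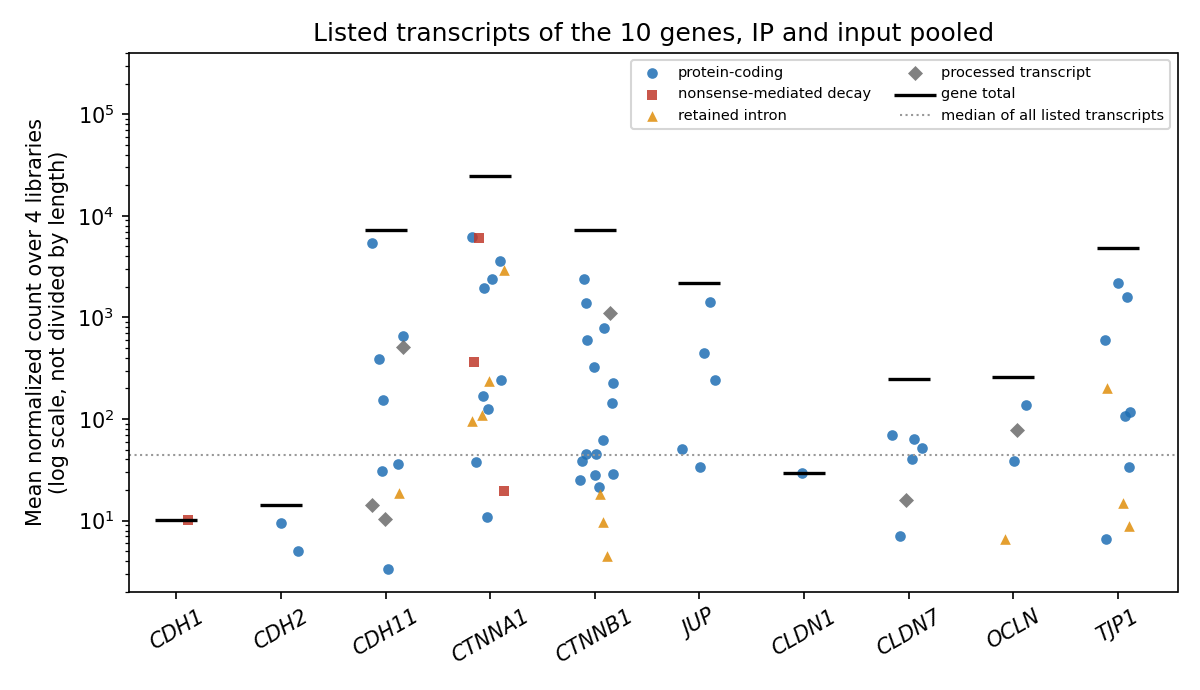
Mean normalized count over the 4 libraries, IP and input pooled, on a log axis for each listed transcript of the 10 genes, with colour and shape for the transcript type, a bar for the gene total and a dotted line at 44.2, the median of all listed transcripts. The transcripts of CDH1, CDH2 and CLDN1 all lie below that line, while CDH11, the 3 catenins and TJP1 each have transcripts above 1000.

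The catenins were all listed with large counts. CTNNA1 (ENSG00000044115.21, chr5:138753425-138935034), which encodes alpha-E-catenin, the link from the cadherin complex to actin, had 24449 mean normalized counts over 16 transcripts. The counts were divided between transcripts of several types. The protein-coding CTNNA1-201 (ENST00000302763.12) had 6186, or 25.3%, and the nonsense-mediated decay transcript CTNNA1-230 (ENST00000521724.5) had 6028, or 24.7%. They were followed by the protein-coding CTNNA1-210 with 3609, the retained-intron transcript CTNNA1-227 with 2909, and the protein-coding CTNNA1-243 and CTNNA1-223 with 2370 and 1940. The other 10 transcripts had between 10.9 and 363.

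Protein-coding transcripts held 60.1% of the counts of CTNNA1, the 3 nonsense-mediated decay transcripts 26.2% and the 4 retained-intron transcripts 13.7%. Of the 277 other protein-coding genes with at least 2 listed transcripts and a total within 2-fold, 5.78% had a lower protein-coding share than CTNNA1, and the median share of these genes was 96.8% (quartiles 87.5% and 99.4%). CTNNA1 therefore stood in the lower tail of genes with similar counts, which is a description of the assigned reads and not a test. The genes were matched on total and not on the number of listed transcripts, which was 16 for CTNNA1. This limit also holds for the protein-coding shares of CTNNB1 and OCLN below. The reads were divided among transcripts by a statistical estimate, so reads in exons that CTNNA1-201 and CTNNA1-230 share could have been counted for either, and how much of the 6028 counts is unique to CTNNA1-230 was not tested.

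CTNNB1 (ENSG00000168036.18, chr3:41199505-41240443) encodes beta-catenin, which binds the cadherin tail and also carries Wnt signals to the nucleus. It had the most listed transcripts of the 10 genes, 19, which summed to 7258 mean normalized counts. The protein-coding CTNNB1-252 (ENST00000646725.1) had 2367 (32.6%), CTNNB1-235 had 1388 (19.1%), CTNNB1-202 had 780 (10.7%) and CTNNB1-237 had 593 (8.17%). The processed transcript CTNNB1-215 held 1105 (15.2%). Of the 19 transcripts, 15 were protein-coding and together held 84.3% of the counts, against a median of 94.7% (quartiles 84.2% and 99.1%) in the 1391 other genes with similar totals, so that the share of CTNNB1 lay just within the quartiles. The 3 retained-intron transcripts had 18.4, 9.74 and 4.45, together 0.448% of the gene, where those of CTNNA1 held 13.7%.

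JUP (ENSG00000173801.17, chr17:41754609-41786711), which encodes plakoglobin, the relative of beta-catenin that serves both adherens junctions and desmosomes, had 2202 mean normalized counts. Its 5 listed transcripts were all protein-coding. JUP-201 (ENST00000310706.9) had 1431 (65.0%), JUP-203 had 445 (20.2%), JUP-204 had 241 (10.9%), and JUP-205 and JUP-208 had 50.6 and 34.0. The share of JUP-201 lay within the quartiles of the 1416 other genes with 5 listed transcripts, whose most abundant transcript held between 44.0% and 72.8%.

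The 3 genes for membrane proteins of tight junctions had gene totals between 29.6 and 261 mean normalized counts. CLDN1 (ENSG00000163347.6, chr3:190305707-190322446), which encodes claudin-1, a sealing claudin, had 1 listed transcript, the protein-coding CLDN1-201 (ENST00000295522.4), with a mean normalized count of 29.6. CLDN7 (ENSG00000181885.18, chr17:7259903-7263213), a claudin of epithelial cells, had 6 transcripts that summed to 249. No transcript dominated, with 69.5 for CLDN7-202, 63.5 for CLDN7-203, 52.3 for CLDN7-201, 40.8 for CLDN7-208, 16.0 for the processed transcript CLDN7-206 and 7.09 for CLDN7-207. The most abundant transcript held 27.9% of the gene, below the lower quartile of 41.5% in the 1187 other genes with 6 listed transcripts. The RefSeq locus of CLDN7 overlaps that of ELP5, a subunit of the Elongator complex on the opposite strand, which had 481 mean normalized counts. The libraries were made with a stranded kit, but whether the reads were counted by strand is not given in the sources used here, and how many reads of the overlap went to either gene was not tested.

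OCLN (ENSG00000197822.11, chr5:69492547-69558104), which encodes occludin, had 4 transcripts that summed to 261 mean normalized counts. The protein-coding OCLN-201 (ENST00000355237.6) had 138 (52.9%), the processed transcript OCLN-204 had 77.8 (29.8%), the protein-coding OCLN-202 had 38.5 (14.8%) and the retained-intron transcript OCLN-203 had 6.54. Protein-coding transcripts held 67.7% of the gene, against a median of 87.2% and a lower quartile of 63.7% in the 2848 other genes with similar totals. The pseudogene OCLNP1, an unprocessed copy of occludin, was listed with 139, or 53.1% of the OCLN total, so both values are uncertain where reads fit either copy. The pseudogene CTNNA1P1, with 20.0, came to 0.0820% of the CTNNA1 total.

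TJP1 (ENSG00000104067.16, chr15:29699367-29969049), which encodes ZO-1, the scaffold that ties claudins and occludin to actin, had 4832 mean normalized counts over 10 transcripts. The protein-coding TJP1-209 (ENST00000545208.6) had 2163 (44.8%), TJP1-212 had 1579 (32.7%) and TJP1-208 had 600 (12.4%). The share of TJP1-209 was close to the median of the 381 other genes with 10 listed transcripts, 45.0%. The 3 retained-intron transcripts, TJP1-211 with 204 and TJP1-207 and TJP1-206 with 14.9 and 8.79, held 4.72% of the gene. The locus also contains the processed pseudogene HMGN2P5, which was listed separately with 3634 mean normalized counts. Beside the TJP1 total of 4832, the totals of the genes whose proteins ZO-1 anchors were 29.6 for CLDN1, 249 for CLDN7 and 261 for OCLN. These totals are not divided by length.

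**Figure D2:**
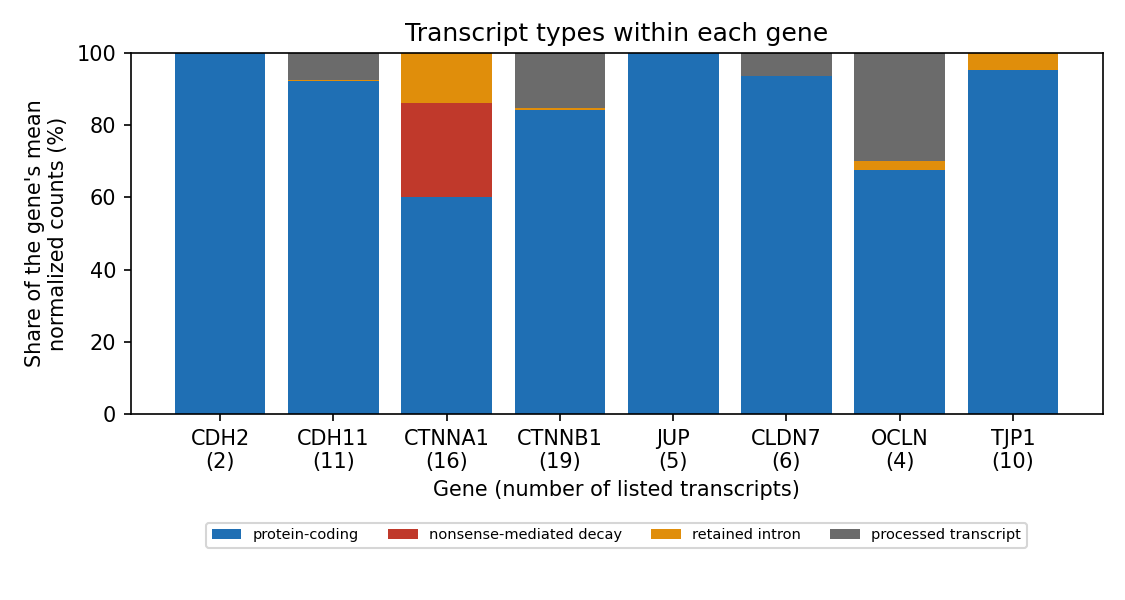
Share of the mean normalized counts of each gene, in percent, by annotated transcript type for the 8 genes with at least 2 listed transcripts, whose numbers stand in parentheses. CTNNA1 has the lowest protein-coding share (60.1%) and is the only one of the 8 with counts in nonsense-mediated decay transcripts (26.2%), and OCLN has the highest share of processed transcripts (29.8%).

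Over all 10 genes, 53 of the 75 transcripts (70.7%) were annotated as protein-coding, 12 (16.0%) as retained-intron, 6 (8.0%) as processed and 4 (5.33%) as nonsense-mediated decay transcripts. All 10 are protein-coding genes, and over the 65841 listed transcripts of all 14050 protein-coding genes these shares were 59.6%, 17.2%, 13.2% and 9.86%. The median mean normalized count was 69.5 over the 75 transcripts and 52.2 over those of all protein-coding genes, and 35 of the 75 (46.7%) reached 100, against 37.6%. In 4 of the 8 genes with at least 2 listed transcripts, CTNNA1, CTNNB1, CLDN7 and TJP1, no transcript held as much as 50% of the counts, against 32.7% of all 11482 such protein-coding genes. These shares describe the genes chosen and carry no test. Together the 10 genes took 0.139% of all mean normalized counts, and 98.8% of that lay in CDH11, CTNNA1, CTNNB1, JUP and TJP1.

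Other genes of the same structures were taken from lists of known members. Of 93 such genes, 53 were listed and 43 had a total of at least 100 mean normalized counts. Among the 20 other cadherins 5 were listed, of which CDH4 (R-cadherin) had 4221 and CDH24 had 889, while CDH3 (P-cadherin) had 18.1, CDH15 13.3 and CDH18 3.90. All 9 listed genes of the 13 other catenins and adherens junction partners had at least 100, among them VCL (vinculin, 21170), NECTIN2 (a nectin adhesion receptor, 11100), AFDN (afadin, which binds nectins, 6844) and CTNND1 (p120-catenin, which stabilises cadherins at the membrane, 5117). The 4 without a row were CTNNA2, CTNNA3, CTNND2 and NECTIN4.

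Of 13 desmosome genes, 7 were listed, with 12592 for DSP (desmoplakin), 6129 for EVPL (envoplakin), 4546 for PPL (periplakin) and 2360 for DSG2 (a desmosomal cadherin). Of the 20 other claudins, 9 were listed, and CLDN4 had 2266, CLDN23 543, CLDN12 311 and CLDN15 249. Of the 13 other tight junction proteins, 9 were listed, among them the scaffold and polarity genes PARD3 (3638), MPP5 (2428), MPDZ (1210) and CGN (cingulin, 369), and MARVELD3, JAM2, JAM3 and CRB3 had no row. All 14 genes of beta-catenin turnover and transcription were listed. BCL9L, a coactivator of beta-catenin, had 23259, the kinase CSNK1A1 3526, and APC and AXIN1 of the destruction complex 2807 and 2750.

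**Figure D3:**
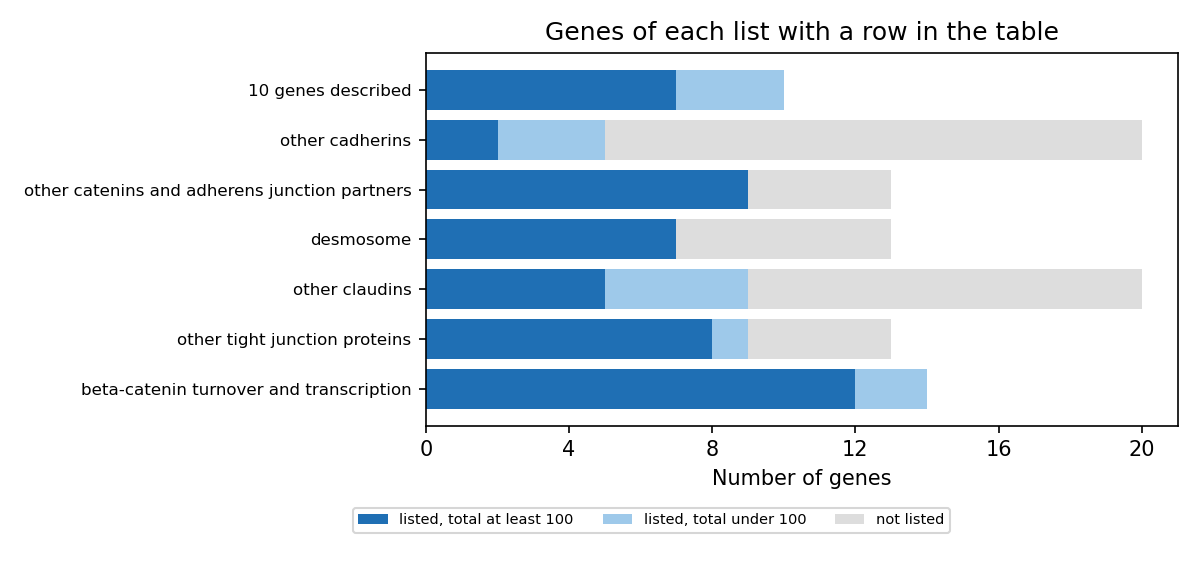
Number of genes with a row in the table for the 10 genes described and for 6 lists of related genes, split by a gene total of at least 100 mean normalized counts. All 14 beta-catenin turnover and transcription genes are listed, against 5 of the 20 other cadherins and 9 of the 20 other claudins.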

How the data were processed

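RIP-seq libraries were 2 Flag-YTHDC1 IP and 2 input, grouped by their labels. Per the labels and the study's methods, the authors mapped reads with STAR (version 2.7.2b) to a GENCODE transcriptome on GRCh38, estimated transcript reads with RSEM (version 1.2.31), required 5 or more reads in 50% or more of the samples, corrected batches with RUVSeq and ran DESeq2. The authors deposited 1 table. The signal column deposited by the authors is a pooled mean normalized count per transcript, made with DESeq2 size factors. Its 4 columns of the authors' own comparison (fold change, its error, p-value and adjusted p-value) were not used. With no counts of single libraries, the count test planned for IP against input was not run. The pooled mean says nothing of recovery with YTHDC1, and the authors' comparison, which bears on it, was left unused. The read filter leaves transcripts with few reads out of the table, and no interval can be given because depth is unknown.

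Gene totals and shares were summed per gene with python 3.11.15, numpy 2.4.6 and pandas 2.3.3, and drawn with matplotlib 3.10.9. Tested on simulated data, totals were recovered for 20298 of 20298 genes. Of each of the 10 genes, transcripts with at least 5% of the gene's counts were named. Of the other lists, the 4 genes with the highest total were named, and those without a row where at most 5 had none. All other genes were named after their values were seen. One gene was left out of the other lists and is not reported here. The members and lists were chosen with earlier results of these data known. Loci are those of RefSeq on GRCh38.p14, found for all 10 genes.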

Additional observations from a re-analysis of the deposited data

How the results depend on the processing

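The number of transcripts and the gene totals were recomputed with transcripts of at least 10 or at least 100 mean normalized counts and with protein-coding transcripts alone, shares of the most abundant transcript with the last 2 of these, and numbers of genes listed with a gene total of at least 100. A value within 1.5 times was taken as the same. Of the 51 values above 0 that these settings gave, 43 were the same by this measure and 8 moved. Some of the 43 could not move because the setting removed no transcript, as for JUP with a minimum of 10 and CDH2 with protein-coding transcripts alone. The 43 are therefore not a measure of stability. With a minimum of 10, CDH2 gave no value, since both its transcripts were lower. With a minimum of 100, 35 of the 75 transcripts were left, OCLN fell to 138 mean normalized counts and OCLN-201 then held 100% of it. CDH1, CDH2, CLDN1 and CLDN7 gave no value there, since they had no transcript of 100. With protein-coding transcripts alone, CTNNA1 had 14687 and CTNNA1-201 held 42.1% of it, and CDH1 gave no value. With a gene total of at least 100, 2 other cadherins, 5 other claudins and 2 blood and endothelial markers remained listed, and no basal epithelial marker did, a count of 0 that is not among the 51. No paired analysis was possible because the table gives no value per library, and for the same reason the alternatives to the count test (size factors, filter, leaving out a library) were not run. The values of CDH1, CDH2 and CLDN1 rest on few reads and their error is unknown.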
